A study of Mus musculus with 2 samples.

Results

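The *Tm4sf1*+ cycling cells of MC38 tumors were 2624 of the 25402 cells kept from both libraries, or 10.3%, and were labelled as cycling MC38 tumor cells. They were chosen by UMI counts, a UMI being a tag that marks 1 captured RNA molecule. Kept cells had 500 or more genes, 1000 or more UMIs, and no more than 15% of UMIs from mitochondrial genes. A member had at least 3 UMIs of *Krt8*, *Krt18* and *Tm4sf1* together, at most 2 UMIs of *C1qa*, *C1qb*, *C1qc* and *Tyrobp*, no UMI of *Cd3e*, *Pecam1* or *Cdh5*, under 1% of its UMIs in *Col1a1* and *Col1a2*, and at least 4 UMIs of the cycle genes *Mki67*, *Top2a*, *Cdk1*, *Ccnb1*, *Cdc20* and *Birc5*. Of the members, 1463 of 13542 kept cells came from *Lmo7*+/+ hosts and 1161 of 11860 from hosts labelled *Lmo7*-/-. The same gates without the cycle genes took 4348 cells, of which 60.3% were members, and the remaining 1724 (1091 and 633) are called the other *Tm4sf1*+ cells.

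MC38 is a mouse colon cancer cell line, here implanted under the skin of female C57BL/6 mice of 6 to 8 weeks. *Lmo7* encodes a protein with LIM and PDZ domains. The *Lmo7*-/- hosts were global knockouts, while the implanted MC38 line was not itself deleted for *Lmo7*. Live cells sorted from the tumors were loaded on the 10x Genomics platform as 1 library per genotype, and both libraries were sequenced together. The number of mice behind each library is not given in the sources used here. With 1 library per genotype no test between the genotypes was possible, cells are not replicates, and all intervals are 95% intervals that cover counting error only.

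In the cell cycle, cyclin D with CDK4 and CDK6 and cyclin E with CDK2 inactivate the RB family, which frees E2F factors to turn on the genes of DNA replication. Cyclin A2 and the B-type cyclins with CDK1 then drive the cell into mitosis, whose genes are turned on later by B-MYB with the MuvB complex and by FOXM1. Mitotic exit follows when the APC/C, a ubiquitin ligase activated by CDC20, marks cyclin B1 and securin for destruction.

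Promoters of the G2/M genes were searched for motifs of the cell cycle. The element TTTGAA, known as the cell cycle homology region, and CCAAT boxes are typical of genes of mitosis, and E2F motifs of genes of replication. In the 250 bases before the start of each gene (RefSeq promoters, GRCm38.p6), both strands were searched for TTTGAA, for CCAAT and for E2F motifs (the form TTCCCGC, the form TTCGCGC, the form TTGCCGC and the form TTGGCGC, of which the second and the fourth can overlap on opposite strands). Of the 52 genes in the G2/M list with the cycle gate genes, 46 had a promoter in the table. TTTGAA was in 18 of them (39.1%) and CCAAT in 36 (78.3%), against 16.3% and 34.5% of all 27025 promoters, and an E2F motif in 8 (17.4%), against 7.97%. Those promoters include genes that these cells do not express. Of the 10920 genes compared in these cells 8685 had a promoter, which is under 80%. In these the shares were 10.3% for TTTGAA, 37.2% for CCAAT and 15.1% for E2F motifs, and nothing is concluded from them. No enrichment is read against all promoters either. For the S phase list 30 of 42 genes had a promoter, which is also under 80%, so its shares are void and the lists are not compared. A match is a description of letters and not a bound site. The last 120 bases before the start are shown for gate genes and list genes whose levels are given below, with TTTGAA (or its reverse complement TTCAAA) in capitals for *Top2a* (chr11:99024190-99024309, - strand), *Mki67* (chr7:135716380-135716499, - strand), *Kif11* (chr19:37376262-37376381, + strand) and *Hmgb2* (chr8:57511723-57511842, + strand), and with E2F motifs in capitals for *Mcm6* (chr1:128359706-128359825, - strand), where matches on both strands overlap.
Top2a: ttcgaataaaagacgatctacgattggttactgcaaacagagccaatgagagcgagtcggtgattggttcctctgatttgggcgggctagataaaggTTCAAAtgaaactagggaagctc
Mki67: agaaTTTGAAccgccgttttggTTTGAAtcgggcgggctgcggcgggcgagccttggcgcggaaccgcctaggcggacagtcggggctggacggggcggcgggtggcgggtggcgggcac
Kif11: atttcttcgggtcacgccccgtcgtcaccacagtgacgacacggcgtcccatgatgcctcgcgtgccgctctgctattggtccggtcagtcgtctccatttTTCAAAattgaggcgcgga
Hmgb2: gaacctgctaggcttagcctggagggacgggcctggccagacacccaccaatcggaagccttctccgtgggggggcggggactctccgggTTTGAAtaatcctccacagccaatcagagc
Mcm6: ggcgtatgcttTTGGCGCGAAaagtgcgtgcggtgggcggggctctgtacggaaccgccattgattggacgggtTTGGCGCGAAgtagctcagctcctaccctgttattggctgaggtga

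The label was checked against the data before any comparison. *Krt8* and *Krt18*, keratins of simple epithelia, had no UMI in the members of the *Lmo7*+/+ library (0 of 1463 cells, which limits cells with a UMI to 0.252% and not cells that express the genes) and 1 UMI each in those of the library labelled *Lmo7*-/-. All 1463 and all 1161 members therefore passed the tumor gate on *Tm4sf1* alone, a tetraspanin-like surface protein, and in all 6 kept cells had at least 3 keratin UMIs in the *Lmo7*+/+ library and 0 in the other. The keratins of the label were thus at or near 0 UMIs, and the cells are called by their rule. *Tm4sf1*, which the rule used, was 795 CPM (UMIs per 1000000 UMIs of the class) in the members of the *Lmo7*+/+ library and 740 CPM in those labelled *Lmo7*-/-, against 25.1 and 20.2 CPM in macrophage-gated cells and 1249 and 770 CPM in endothelial-gated cells.

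Genes that no gate used set the members apart from cells gated on host lineages. *Xist*, the RNA that coats the inactive X chromosome in female cells, was 1.77 CPM in the members of the *Lmo7*+/+ library and 0.893 CPM in those labelled *Lmo7*-/-. It was 228 and 213 CPM in macrophage-gated cells, 283 and 267 CPM in T cell-gated cells, 87.5 and 87.7 CPM in fibroblast-gated cells, and 88.9 and 126 CPM in endothelial-gated cells. All 4 of these classes thus had a level at least 49.6-fold that of the members of the same library. The fibroblast and endothelial gates had no upper limit on the tumor gate, and *Tm4sf1* was 296 and 198 CPM in fibroblast-gated cells. The part of MC38 cells in these 2 classes was not tested. With every cell thinned to 3000 UMIs, 0.426% and 0.176% of the members had an *Xist* UMI, against 44.5% and 40.6% of macrophage-gated cells, and without thinning the shares were 2.12% and 1.29% at a median depth of 14006 and 15192 UMIs, against 55.0% and 50.7% at 4513 and 3930 UMIs. *Ptprc*, which encodes the leukocyte antigen CD45, was 2.44 and 1.34 CPM against 436 and 451 CPM in macrophage-gated cells. Of the fibroblast genes, *Lum* was 0.136 and 0.112 CPM against 122 and 162 CPM in fibroblast-gated cells, *Thy1* was 0.996 and 1.12 CPM against 480 and 432 CPM, and *Mgp* was 5.25 and 4.52 CPM against 1514 and 1158 CPM. Other fibroblast genes were less far apart. *Dcn*, which encodes decorin, was 112 and 157 CPM against 1007 and 1511 CPM in fibroblast-gated and 16.0 and 33.1 CPM in macrophage-gated cells, and *Pdgfrb* was 13.6 and 9.04 CPM against 176 and 112 CPM, and 3.06 and 2.02 CPM.

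**Figure D1:**
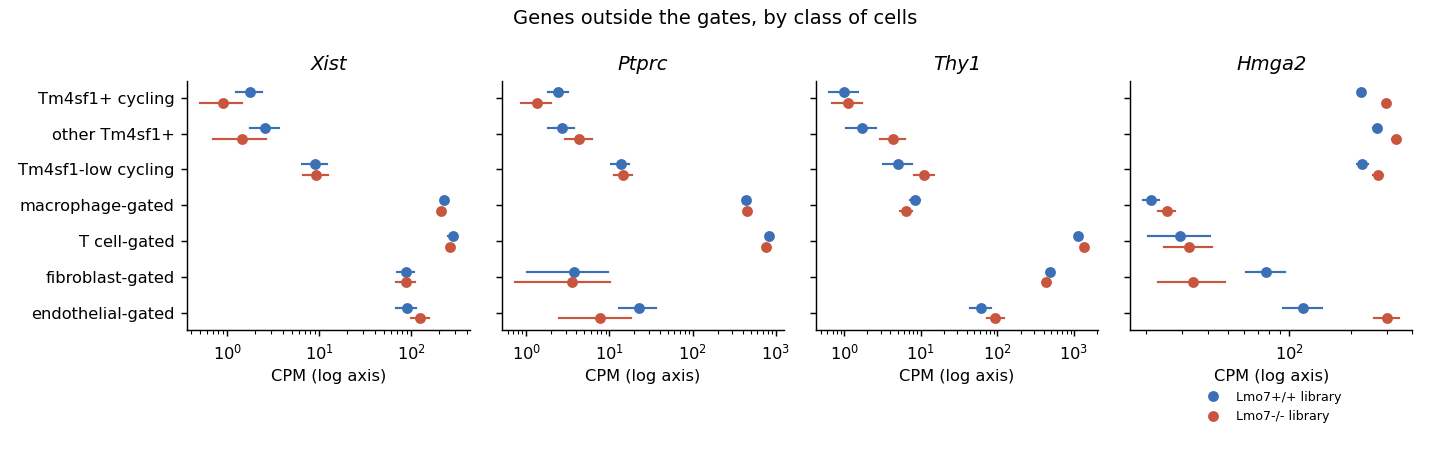
Levels of 4 genes outside the gates in CPM (log axes), for 7 classes of cells (rows) in the *Lmo7*+/+ library (blue) and the library labelled *Lmo7*-/- (red), with lines for exact Poisson 95% intervals. *Xist*, *Ptprc* and *Thy1* are near 1 CPM in the *Tm4sf1*+ cycling cells, far below the classes gated on host lineages that carry them, and *Hmga2* is at 224 and 299 CPM.

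Genes of mesenchymal and of epithelial cells were also looked at. *Vim*, the intermediate filament of mesenchymal cells, was 5172 and 5314 CPM. *Hmga2*, a chromatin protein of embryonic and tumor cells, was 224 and 299 CPM, against 21.1 and 25.2 CPM in macrophage-gated cells, but also 117 and 300 CPM in endothelial-gated cells (83 and 195 counts). *Epcam* was 3.12 and 1.62 CPM, near its 3.75 and 1.75 CPM in macrophage-gated cells, *Cdh1* (E-cadherin) was 0.317 and 0.279 CPM, and *Cdx2* and *Hnf4a*, transcription factors of the gut, had no UMI. *Krt14*, a keratin of basal epithelia, was 27.2 and 24.7 CPM, against 2.59 and 2.07 CPM in macrophage-gated and 161 and 95.5 CPM in endothelial-gated cells.

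The tumor gate left out cycling cells with less *Tm4sf1*. A further 1129 and 911 kept cells passed every other gate and the cycle gate with under 3 UMIs of the tumor gate. Their median depth was 2665 and 3235 UMIs, against 14006 and 15192 UMIs in the members. *Xist* was 8.97 and 9.26 CPM and *Hmga2* 228 and 271 CPM in them, and *Ptprc* was 13.6 and 14.6 CPM. Their *Xist* level was 5.08-fold and 10.4-fold that of the members and below that of macrophage-, T cell-, fibroblast- and endothelial-gated cells. The members are thus the more deeply sequenced of the cycling cells that pass the other gates. Just inside and outside the limits, 105 and 66 *Tm4sf1*+ cells had 4 cycle UMIs and 162 and 81 had 3, while 165 and 133 cells had 3 UMIs of the tumor gate and 251 and 173 had 2 with all other gates passed.

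The level of *Lmo7* itself (mm10, chr14:101729957-101934710, + strand) was 18.3 CPM in the members of the *Lmo7*+/+ library and 12.3 CPM in those labelled *Lmo7*-/- (405 and 220 counts, log2 ratio −0.58, interval −0.82 to −0.34). It was 19.7 and 19.9 CPM in the other *Tm4sf1*+ cells (log2 ratio 0.01), so the libraries were apart in the cycling cells alone of these 2 classes, and the difference between the classes was not tested. These cells carry their own gene and do not check the host genotype. In endothelial-gated cells *Lmo7* was 29.6 and 27.7 CPM from 21 and 18 counts, and in macrophage-gated cells 1.76 and 1.75 CPM. *Lmo7* counts in these classes did not separate the libraries. The endothelial gate had no upper limit on UMIs of the tumor gate, and *Hmga2* was 117 and 300 CPM in that class. The part of MC38 RNA in its *Lmo7* counts was not tested. Where the deletion lies relative to the sequenced end of the transcript is not given in the sources used here, so these counts check nothing by themselves. Directions between the libraries below are therefore those of the labels.

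The libraries had similar depth. The deposited droplets numbered 16208 with 98582479 UMIs in the *Lmo7*+/+ library and 15163 with 80648345 UMIs in the other. The members held 22087127 and 17919659 of these UMIs, with a median of 14006 (1148 to 51537) and 15192 (1032 to 50758) UMIs, 4068 and 4119 genes and 7.33% and 7.12% mitochondrial UMIs per cell. The other *Tm4sf1*+ cells had a median of 10952 and 10606 UMIs. The libraries shared 279 cell barcodes, and 5 barcodes belonged to members in both. Scrublet marked 2 and 0 members as doublets, against 2.90% and 2.60% of all kept cells, and none was removed.

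All 6 cycle genes, which chose the members, were detected together in 390 and 319 members. *Top2a*, the topoisomerase that untangles replicated DNA, was 842 CPM in the members and 41.1 CPM in the other *Tm4sf1*+ cells of the *Lmo7*+/+ library, and 795 and 38.3 CPM in the library labelled *Lmo7*-/-. *Mki67*, which coats mitotic chromosomes, was 148 and 131 CPM in the members. *Ccnb1*, the mitotic cyclin B1, was 168 and 164 CPM, and *Cdc20* was 141 and 145 CPM. The 6 genes differed little between the libraries, with log2 ratios from −0.18 (*Mki67*) to 0.12 (*Cdk1*).

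A higher share of the *Tm4sf1*+ cells was cycling in the library labelled *Lmo7*-/-. The share was 57.3% (55.3% to 59.2%) in the *Lmo7*+/+ library and 64.7% (62.5% to 66.9%) in the other, a difference of 7.43 percentage points (4.49 to 10.3). After each cell had been thinned to 3000 UMIs before the gates, with 161 and 83 shallower cells left out, it was 40.0% and 46.3% (difference 6.29 points, 1.74 to 10.8). On thinned counts the tumor gate took 1180 and 741 cells, against 2554 and 1794 as deposited, so the thinned shares are not over the same cells. The difference had the same sign in all 5 ranges of depth, from 2.05 points (−4.35 to 8.40) in cells of 5000 to 10000 UMIs to 13.8 points (7.42 to 19.9) in cells of 15000 to 20000 UMIs. The interval also included 0 in cells of 1000 to 5000 UMIs (−0.478 to 15.3) and of 10000 to 15000 UMIs (−2.46 to 9.90). Above 20000 UMIs the difference was 9.01 points (3.92 to 13.9). As a share of all kept cells the order was the opposite, with 10.8% and 9.79% (difference −1.01 points, −1.76 to −0.264). Among macrophage-gated cells the cycling share was 25.2% and 20.2% (difference −5.06 points, −6.86 to −3.26), and among T cell-gated cells 26.0% and 28.0% (difference 1.96 points, −3.96 to 7.70). The sign thus differed between *Tm4sf1*+ cells and macrophages, and none of these differences has a replicate check.

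**Figure D2:**
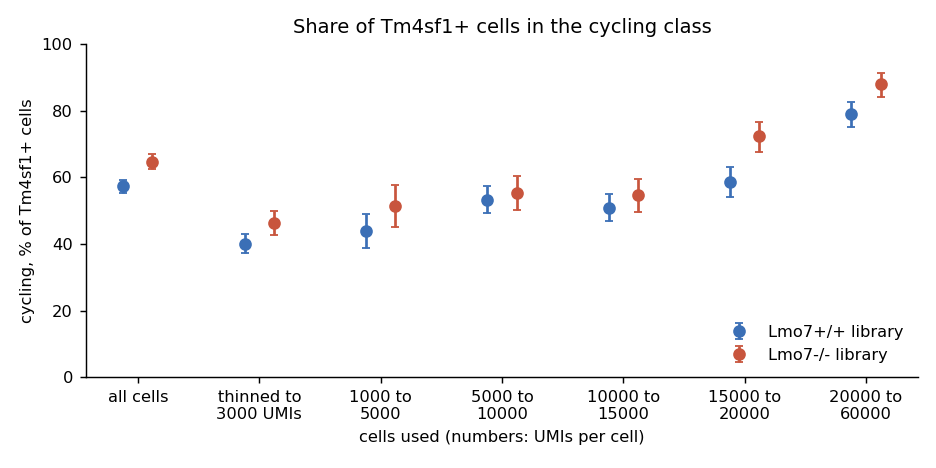
Cycling cells as a percentage of *Tm4sf1*+ cells in the *Lmo7*+/+ library (blue) and the library labelled *Lmo7*-/- (red), for all cells, for cells thinned to 3000 UMIs and for 5 ranges of UMIs per cell, with exact binomial 95% intervals. The red point is above the blue one in every pair, and both are highest in the deepest cells, at 79.0% and 88.0% above 20000 UMIs.

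Against the other *Tm4sf1*+ cells, 366 of 10920 genes with at least 50 counts in each library were at least 2-fold higher in the members of both libraries (3.35%) and 118 were at least 2-fold lower (1.08%). TMM scaling gave 411 and 70. This contrast is the one that the cycle gate made, so the values describe the cells and nothing is read from the counts. Among the 12 genes outside the gate with the highest ratios, *Aurkb*, the Aurora kinase of the chromosomal passenger complex, was 82.3 CPM in the members and 2.83 CPM in the other cells of the *Lmo7*+/+ library (29.1-fold), and 92.2 and 3.49 CPM in the library labelled *Lmo7*-/- (26.4-fold). *Kif11*, the motor that separates spindle poles, was 59.0 and 2.43 CPM, and 60.3 and 2.47 CPM. *Ube2c*, the ubiquitin-conjugating enzyme of the APC/C, was 271 and 12.9 CPM, and 303 and 14.1 CPM. In these 3 genes the libraries gave nearly the same ratio, as they did in *Kif4*, *Kif18b*, *Plk1*, *Pbk*, *Troap* and *Pimreg*. The ratio differed more between the libraries in *Kif2c* (46.6 and 0.809 CPM, 45.8 and 2.18 CPM), *Nusap1* (38.8-fold and 19.9-fold) and *Sapcd2* (24.8-fold and 74.9-fold), where the other cells were between 0.145 and 2.32 CPM.

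The lists are described by role. Since the gate genes belong to G2 and mitosis, the order of the lists is set in part by the gate. All 15 mitotic kinesins were at least 2-fold higher in both libraries (median log2 ratio 3.73 and 3.78), as were 21 of 22 centromere and kinetochore genes (2.50 and 2.56), 42 of 46 G2/M genes outside the gate (3.04 and 2.84) and 15 of 18 mitotic kinases and checkpoint genes (2.83 and 2.84). All 16 genes of homologous recombination and Fanconi repair were also past 2-fold (2.32 and 2.40). Of the 42 G1/S and S phase genes 32 were past 2-fold (1.58 and 1.53), and of 23 genes of origin licensing and firing 16. The median over all 10920 genes was −0.05 and −0.06. *Mcm6*, a subunit of the replicative helicase, was below 2-fold with 170 CPM in the members and 96.3 CPM in the other cells, and 171 and 97.6 CPM. *Hmgb2*, a chromatin protein of the G2/M list, was 587 and 95.2 CPM, and 617 and 113 CPM. *Rrm2*, the regulated subunit of ribonucleotide reductase, was 199 and 28.7 CPM, and 239 and 26.7 CPM.

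**Figure D3:**
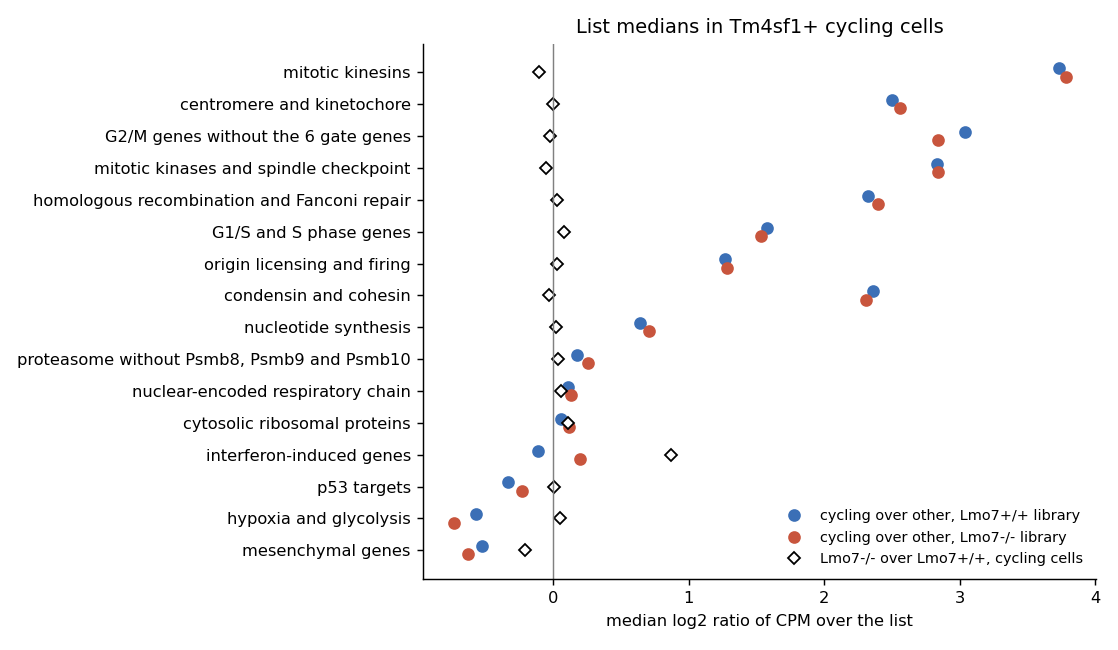
Median log2 ratio of CPM over 16 gene lists (rows): members over the other *Tm4sf1*+ cells in the *Lmo7*+/+ library (blue) and in the library labelled *Lmo7*-/- (red), and library labelled *Lmo7*-/- over *Lmo7*+/+ library in the members (open diamonds). Blue and red lie together, from 3.73 and 3.78 for mitotic kinesins to negative values for hypoxia genes, and the diamonds lie near 0 except for interferon-induced genes at 0.87.

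Among regulators, cyclins differed in their ratio of members to other cells. The gate holds genes of G2 and mitosis, so no order by phase is read from these ratios. *Ccne2* (cyclin E2) was 3.75-fold in the *Lmo7*+/+ library and 3.87-fold in the other. *Ccnb2* (cyclin B2) was 3.09-fold and 2.83-fold, and *Ccne1* (cyclin E1) 1.65-fold and 1.98-fold. *Ccna2* (cyclin A2) was 220 and 12.3 CPM in members and other cells of the *Lmo7*+/+ library, and 232 and 13.8 CPM in the library labelled *Lmo7*-/-. *Ccnd1* (cyclin D1) was 3498 and 3808 CPM, and 2909 and 3408 CPM, and *Ccnd2* was lower in the members in both libraries (218 and 376 CPM, 169 and 314 CPM). These D-type cyclins were thus no higher in the cycling cells. Of 17 E2F, RB and DREAM regulators 8 were past 2-fold, including *Mybl2*, which encodes B-MYB (63.0 and 6.47 CPM, 70.9 and 9.88 CPM), *Foxm1* (68.0 and 11.3 CPM, 72.7 and 9.88 CPM) and *E2f7*, a repressor of E2F targets (44.8 and 8.66 CPM, 44.1 and 8.57 CPM). Of the CDK inhibitors, 3 of 6 with enough counts were also at least 2-fold higher in cycling cells. They were *Cdkn2c* (p18, 25.3 and 3.96 CPM, 26.6 and 2.32 CPM), *Cdkn2d* (p19, 31.4 and 7.28 CPM, 32.4 and 8.28 CPM) and *Cdkn3*, a phosphatase of CDKs. *Cdkn1a* (p21) was lower in the members, with 156 and 211 CPM and with 158 and 243 CPM.

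Hypoxia genes were lower in the members. All 17 hypoxia and glycolysis genes with enough counts were below 0 in both libraries (median log2 ratio −0.57 and −0.73), and 2 of them were past 2-fold. Over all 10920 genes 47.1% were below 0 in both libraries. *Car9*, the carbonic anhydrase of hypoxic tumor cells, was 112 and 261 CPM in members and other cells of the *Lmo7*+/+ library, and 122 and 391 CPM in the other. *Ndrg1* was 128 and 299 CPM, and 138 and 398 CPM. *Slc2a1*, the glucose transporter GLUT1, was 163 and 312 CPM, and 176 and 476 CPM, so its ratio was not past 2-fold in the *Lmo7*+/+ library. Outside that list, *Aldoc*, a glycolytic aldolase, was 39.1 and 128 CPM, and 34.4 and 136 CPM, and *Ndufa4l2*, a mitochondrial protein induced by hypoxia, was 38.0 and 119 CPM, and 36.7 and 146 CPM. Ranked by the weaker of both libraries among genes with at least 100 counts, the lowest ratio was that of *Nr4a3*, an immediate early nuclear receptor (6.07 and 25.8 CPM, 5.02 and 20.9 CPM). All 18 mesenchymal genes with enough counts were below 0 (median −0.52 and −0.63, none past 2-fold). Of 13 p53 targets 10 were below 0 in both libraries (median −0.33 and −0.23) and 1 was past 2-fold, *Trp53inp1* (1.68 and 4.77 CPM, 1.73 and 5.37 CPM). The summed fibroblast markers were 781 CPM in the members and 1575 CPM in the other cells of the *Lmo7*+/+ library, and 963 and 1436 CPM in the library labelled *Lmo7*-/-. Their part in the mesenchymal values was not tested.

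The members were next ordered by phase. The S share is the percentage of a cell's UMIs in the S list among its UMIs in the S and G2/M lists, without the gate genes, after thinning to 3000 UMIs (1410 and 1134 cells, 53 and 27 shallower cells left out). Its median was 37.7% in the *Lmo7*+/+ library and 37.0% in the library labelled *Lmo7*-/-. With limits at 26.5% and 50.0%, which split the pooled members into 3 ranges of similar size, 33.0% and 34.3% of the cells leaned to G2/M, 37.0% and 35.7% were in the middle, and 30.0% and 30.0% leaned to S. The counting intervals of the libraries overlapped in every range, and the median depth of the ranges was 14092 to 15477 UMIs and 14512 to 16317 UMIs. A range of this score is not a type of cell, and 28.9% and 32.4% of the cells lay within 5 points of a limit.

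Genes outside both lists are named for the largest differences along this order in both libraries, so their order is a description. *Ccne1* (cyclin E1) was 7.77 CPM in G2/M-leaning, 22.7 CPM in middle and 45.0 CPM in S-leaning members of the *Lmo7*+/+ library, and 7.41, 21.7 and 35.5 CPM in the library labelled *Lmo7*-/-. *E2f1* was 25.4, 71.0 and 143 CPM, and 31.3, 66.1 and 127 CPM. Both were highest in S-leaning cells. *Lig1*, the ligase that joins Okazaki fragments (51.7, 107 and 183 CPM, and 62.0, 129 and 173 CPM), *Pola2*, *Msh6* and *Tcf19* shared that order. So did *Csf2*, the cytokine GM-CSF, with 15.8, 26.9 and 48.0 CPM, and 13.6, 32.9 and 48.0 CPM. In the other direction, *Plk1*, the kinase of mitotic entry, was 153, 58.0 and 15.1 CPM, and 146, 50.3 and 13.8 CPM. *Aspm*, a protein of spindle poles, was 71.8, 19.1 and 8.37 CPM, and 50.8, 20.2 and 7.61 CPM. *Pif1*, *Arhgap19*, *Fam83d*, *Prr11* and *Depdc1a* were also lowest in S-leaning cells. *Lmo7* was 24.8, 15.5 and 14.5 CPM, and 16.2, 9.48 and 11.1 CPM, so it was highest in G2/M-leaning cells of both libraries.

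Levels of gate genes along the phase order are given first. *Cdc20* was 293, 103 and 20.6 CPM from G2/M-leaning to S-leaning members of the *Lmo7*+/+ library, and 279, 109 and 43.0 CPM in the other. *Top2a* was 1068, 807 and 621 CPM, and 989, 806 and 565 CPM, and *Cdk1* was 371, 246 and 207 CPM, and 391, 286 and 221 CPM. These genes chose the members, so nothing is read from their order. The transcription factors of the mitotic program were in opposite order, with *Mybl2* at 32.2, 72.3 and 85.3 CPM, and 35.8, 79.1 and 98.2 CPM, and *Foxm1* at 103, 66.1 and 32.4 CPM, and 97.5, 73.3 and 44.4 CPM. *Cdkn2d* (53.1, 25.8 and 14.8 CPM, and 54.3, 29.4 and 12.5 CPM) and *Cdkn1b*, which encodes p27 (98.3, 62.8 and 45.1 CPM, and 99.4, 72.1 and 42.6 CPM), were higher towards G2/M. *Ccnd1* was nearly level, with 3442, 3574 and 3454 CPM, and 3115, 2787 and 2817 CPM.

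**Figure D4:**
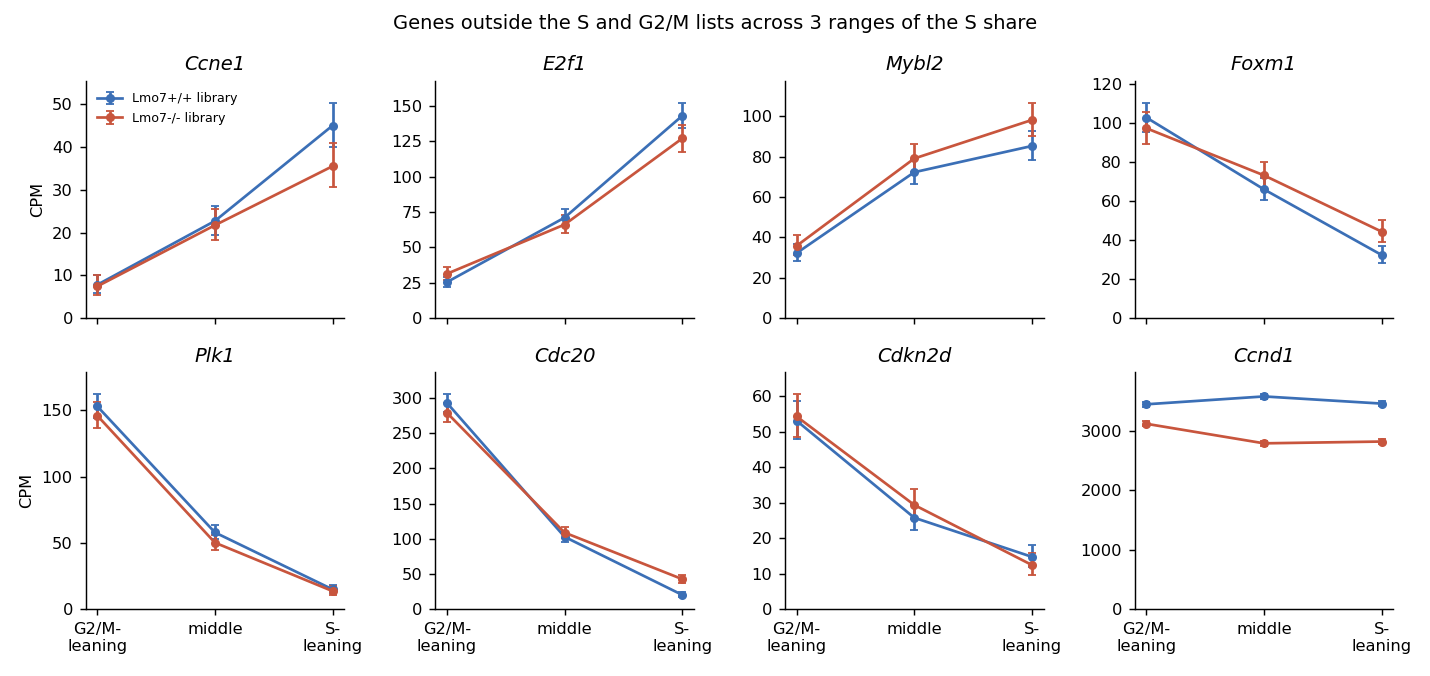
Levels in CPM of 8 genes outside the S and G2/M lists (*Cdc20* is a gate gene) in G2/M-leaning, middle and S-leaning members of the *Lmo7*+/+ library (blue) and the library labelled *Lmo7*-/- (red), with exact Poisson 95% intervals. *Ccne1*, *E2f1* and *Mybl2* are highest in S-leaning cells, *Foxm1*, *Plk1*, *Cdc20* and *Cdkn2d* are lowest there, and *Ccnd1* lies between 2787 and 3574 CPM.

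Levels in cycling host cells, gated by the same 4 cycle UMIs, are set beside those of the members. These are values side by side, since cells were gated on different lineages and depths. *Mki67* was 148 and 131 CPM in the members, 347 and 290 CPM in 1058 and 827 cycling macrophages, and 596 and 448 CPM in 97 and 151 cycling T cells. *Cdc20* was 141 and 145 CPM, 67.8 and 62.0 CPM, and 114 and 82.4 CPM. *Ccnd1* was 3498 and 2909 CPM in the members, 577 and 530 CPM in cycling macrophages, and 285 and 268 CPM in cycling T cells. *Cdkn1a* was 156 and 158 CPM, 1005 and 1046 CPM, and 133 and 203 CPM. *Ccnd1* and *Cdkn1a* were in no gate, and *Ccnd1* was highest in the members and *Cdkn1a* in the cycling macrophages, in both libraries. *Mki67* and *Cdc20* are gate genes under 1 threshold at median depths of 14006 and 15192, 6988 and 6409, and 4354 and 4626 UMIs, so no order is read from them.

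The members were then compared between the libraries, a contrast that the gates did not use. Of 11440 genes with at least 50 counts, 76 (0.664%) were at least 2-fold higher in the library labelled *Lmo7*-/- and 44 (0.385%) at least 2-fold lower, and the median log2 ratio was −0.06. TMM scaling gave 87 and 32, and median-of-ratios scaling 88 and 29. In cells of 5000 to 20000 UMIs 45 were higher, and with means of per-cell CPM 86 were lower. The cell cycle lists were level, with medians of 0.08 for 42 S phase genes, −0.02 for 46 G2/M genes and −0.10 for 15 mitotic kinesins, and no member of these lists past 2-fold.

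Interferon-induced genes were higher in the library labelled *Lmo7*-/-. Of 22 genes in the list, all with at least 50 counts, 9 were at least 2-fold higher, 21 were above 0, and the median log2 ratio was 0.87. *Iigp1*, an immunity-related GTPase that attacks the vacuoles of parasites, was 101 CPM in the *Lmo7*+/+ library and 331 CPM in the other (log2 ratio 1.72, 1.65 to 1.79). *Gbp2*, a guanylate-binding protein, was 176 and 439 CPM (1.32). The gap lay far outside the counting intervals in both genes. The chemokines *Cxcl9* (56.8 and 159 CPM) and *Cxcl10* (287 and 682 CPM), which attract T cells through CXCR3, were higher as well. *Cxcl9* was 685 and 1394 CPM in macrophage-gated and 10.1 and 155 CPM in T cell-gated cells, so its level in the members was near that of T cells in the library labelled *Lmo7*-/-, and the part of free RNA in it was not tested. *Cxcl10* was 549 and 650 CPM in macrophage-gated and 102 and 172 CPM in T cell-gated cells. Also higher was *Cd274*, which encodes the checkpoint ligand PD-L1 (12.5 and 30.8 CPM, log2 ratio 1.30, 1.09 to 1.51).

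The difference was spread over many cells. After thinning to 3000 UMIs, *Iigp1* had a UMI in 19.9% of the *Lmo7*+/+ members (17.8% to 22.0%) and in 44.0% of those labelled *Lmo7*-/- (41.1% to 46.9%), against 5.52% and 8.61% of T cell-gated cells. Without thinning the shares were 40.1% and 71.9%, and 7.24% and 11.3% in T cell-gated cells, whose median depth was 2422 and 2399 UMIs. *Gbp2* had a UMI in 28.4% and 52.4% of the thinned members. The 5 members with most *Iigp1* held 9.44% and 5.81% of its UMIs. The difference thus did not rest on a few cells.

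Other members of the list differed by less than 2-fold. *Isg15*, a ubiquitin-like modifier, was 69.2 and 77.8 CPM (log2 ratio 0.17), *Usp18*, its protease, 8.78 and 10.2 CPM (0.21), and *Oasl1* 9.46 and 6.70 CPM (−0.50). *Irf1*, a transcription factor induced strongly by interferon gamma, was 397 and 597 CPM (0.59). Among 16 genes of MHC class I and peptide loading none was past 2-fold (median 0.16), with *Tap1*, the peptide transporter, at 122 and 181 CPM, *Psmb9*, an immunoproteasome subunit, at 160 and 250 CPM, and *H2-K1* at 2369 and 2633 CPM.

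Related families were counted in lists added after these values had been seen, so the counts are a description. They overlap with the interferon list, which already holds *Iigp1*, *Igtp*, *Irgm1* and *Ifi47* of the GTPases and *Gbp2*, *Gbp3*, *Gbp4* and *Gbp7* of the guanylate-binding proteins. Over all tested genes 0.664% were at least 2-fold higher. Of 10 immunity-related GTPases with enough counts, 8 were at least 2-fold higher (median log2 ratio 1.23), and their summed level was 433 CPM in the *Lmo7*+/+ library and 1061 CPM in the other. Of 8 guanylate-binding proteins, 4 were (median 1.05, 359 and 799 CPM). Of 8 MHC class II genes, 2 were and all 8 were above 0 (median 0.84). *Ciita*, the master activator of class II, was 3.80 and 8.43 CPM (84 and 151 counts). The median over 10 genes of the interferon receptors and JAK-STAT pathway was −0.02, with *Ifngr1* at 40.9 and 36.9 CPM, *Ifngr2* at 35.0 and 28.3 CPM and *Jak1* at 174 and 167 CPM. The 2 receptor chains were thus slightly lower while most of the induced genes were higher.

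Free RNA of macrophages can reach other droplets, so its markers are given beside these values. The 14 macrophage markers, led by *Lgmn* (42.2 and 30.4 CPM) and none of them at 0, summed to 163 CPM in the members of the *Lmo7*+/+ library and 139 CPM in those of the other, against 24979 and 30707 CPM in macrophage-gated cells. In the 721 and 618 members with no UMI of the macrophage gate the interferon median was 0.98. *H2-Aa*, a class II chain abundant in macrophages, had a UMI in 43.1% and 57.0% of thinned members, and in 22.8% and 20.6% of thinned T cell-gated cells, which should lack it. The 6 fibroblast markers, led by *Col1a1* (266 and 322 CPM), summed to 781 and 963 CPM in the members, and the 7 T cell markers to 2.54 and 2.46 CPM, with *Cd3e* at 0 by the gate. The part of free RNA in the class II values was not tested.

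Outside the cycling cells the interferon median was also above 0, with fewer of the genes higher. In the other *Tm4sf1*+ cells it was 0.66, with 14 of 22 genes above 0, 5 of them past 2-fold, and *Iigp1* at 131 and 331 CPM. It was 0.34 in macrophage-gated cells, with 15 of 22 above 0 and 1 past 2-fold, and 0.29 in T cell-gated cells, with 12 of 19 above 0 and 3 past 2-fold. The share of all tested genes at least 2-fold higher was 0.664% in the members, 0.419% in the other *Tm4sf1*+ cells, 0.825% in macrophage-gated and 0.682% in T cell-gated cells. The median log2 ratio over all tested genes was −0.06, −0.04, −0.07 and −0.04 in these classes. Differences between the classes were not tested. Within the members, the summed interferon list was 2244, 1914 and 1883 CPM from G2/M-leaning to S-leaning cells in the *Lmo7*+/+ library and 3507, 4141 and 4167 CPM in the other, so it was higher in all 3 ranges.

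**Figure D5:**
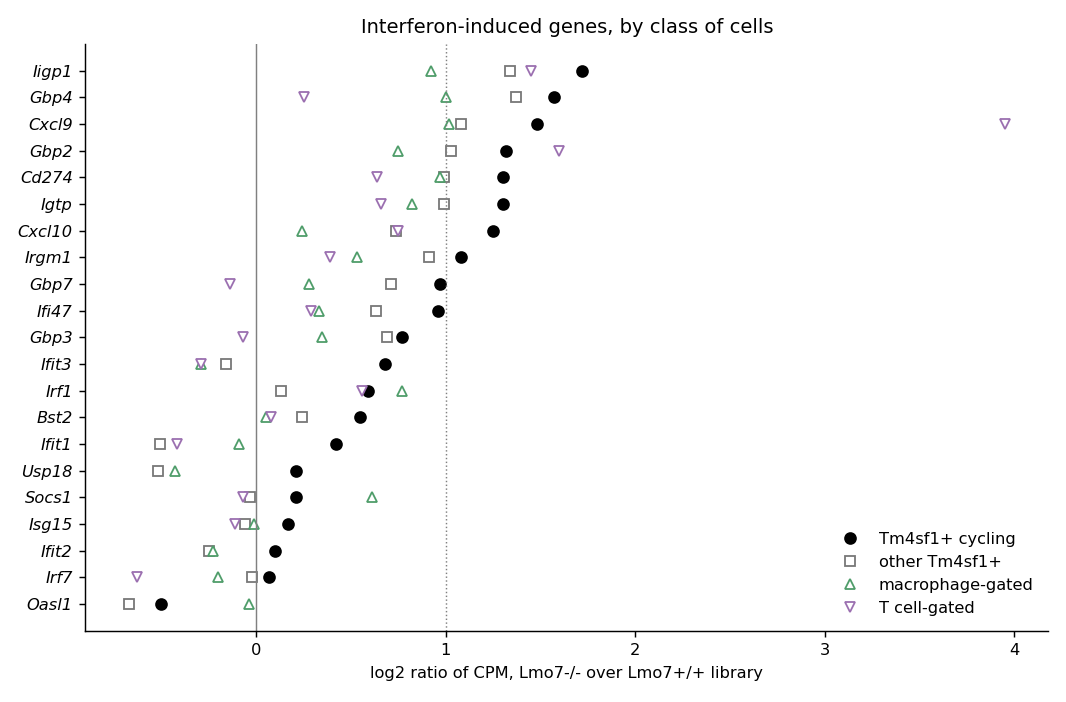
Log2 ratio of CPM, library labelled *Lmo7*-/- over *Lmo7*+/+ library, for 21 of the 22 interferon-induced genes (rows) in *Tm4sf1*+ cycling cells (filled circles), other *Tm4sf1*+ cells (squares), macrophage-gated cells (upward triangles) and T cell-gated cells (downward triangles, genes with at least 50 counts), with a dotted line at 2-fold. *Iigp1*, *Gbp4* and *Cxcl9* lead in the cycling cells, and *Oasl1* alone is below 0 there.

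The 12 genes with the highest ratios among those with at least 100 counts were of several kinds. *Serpina3f*, a serpin, was 2.49 and 15.2 CPM, *Ido1*, which degrades tryptophan, 3.17 and 13.6 CPM, *Tgtp1* 8.29 and 29.8 CPM, *Batf2* 5.12 and 17.0 CPM and *Gm12185* 1.95 and 7.25 CPM. *Iigp1* was among the 12 as well. *Tubb2b*, a beta-tubulin, was 3.17 and 16.3 CPM, and *Nlrp5*, an oocyte gene, was 0.226 and 5.75 CPM (5 counts in 5 cells, and 103 counts in 62 cells). *Magohb*, *Isyna1*, *Tex13b* and 4930579C12Rik completed the 12.

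Some genes of the extracellular matrix are named next. They form no list here, so no direction is read for them as a group. *Postn*, which encodes the matrix protein periostin, was 100 and 33.5 CPM (log2 ratio −1.58, −1.72 to −1.45), from 618 and 200 cells with a UMI. It had a UMI in 18.9% and 6.79% of thinned members, and was 170 and 69.0 CPM in the other *Tm4sf1*+ cells. *Fn1* (fibronectin) was 415 and 220 CPM (−0.91) and *Adamts2*, which trims procollagen, 3.62 and 1.40 CPM. *Slpi*, a protease inhibitor, was 41.6 and 16.8 CPM (−1.31), and −0.49 in members with no UMI of the macrophage gate. Over the 18 mesenchymal genes the median was −0.21, with none past 2-fold. *Col3a1* (236 and 317 CPM), *Col1a1* (266 and 322 CPM) and *Col1a2* (102 and 119 CPM) were among those in the opposite direction. So was *Dcn* (112 and 157 CPM) of the fibroblast markers, also within 2-fold. *Col1a1* and *Col1a2* are genes of the gate. The immediate early genes *Fos* (562 and 360 CPM) and *Egr1* (487 and 361 CPM) were lower but within 2-fold. Others of the immediate early and heat shock list went differently. *Jun* (1.02-fold) and *Junb* (0.995-fold) were level and *Hspa1b* was higher (2.31-fold). None of the 14 genes of that list with enough counts was at least 2-fold lower. *Hspb1* (0.205-fold) had too few counts to be compared, so no direction is read for it. Of the other genes with the lowest ratios, *Megf10*, *Sept3*, *Efna4*, *Metap1d*, *Pcdhb5*, *Scg2*, B230209E15Rik and *Rgs5* had between 23 and 87 counts in the members labelled *Lmo7*-/-, and *Rgs5* turned to a log2 ratio of 0.47 in cells of 5000 to 20000 UMIs. *Igkc*, an immunoglobulin chain of B lineage cells, had 87 and 23 counts there, in 73 and 22 cells.

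Of the 76 genes higher in the members labelled *Lmo7*-/-, 46 had enough counts in the other *Tm4sf1*+ cells and 21 were at least 2-fold higher there too. Of the 44 lower genes, 30 had enough counts and 5 were at least 2-fold lower. Of the 10729 genes with enough counts in the other *Tm4sf1*+ cells, 45 were higher and 57 lower.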

How the data were processed

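The authors deposited raw UMI counts per gene and cell barcode for both libraries. The submitters' processing notes name Cell Ranger 2.1.1 and mm10, while the matrix header gives software version 3.0.0, and barcodes have 24 bases. The deposited matrices are not normalized. Cells were filtered and gated on raw counts as stated with the members. For each class and library the cells' counts were added up and expressed as CPM, and log2 ratios are ratios of CPM with exact conditional intervals. A gene with 0 counts on one side was set to a floor of 3 counts. Levels of different genes are not compared. CPM have exact Poisson, shares exact binomial and differences of shares Newcombe intervals at 95%. Genes with at least 50 counts were compared, and past the fold means at least 2-fold, since no test was possible.

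Macrophage-gated cells had at least 5 UMIs of the macrophage gate and T cell-gated cells at least 1 of *Cd3e*, each with at most 2 of the tumor gate and none of *Pecam1* and *Cdh5*; the former had no *Cd3e*, the latter at most 2 macrophage-gate UMIs. Fibroblast-gated cells had at least 1% collagen UMIs and endothelial-gated cells at least 2 UMIs of *Pecam1* and *Cdh5*, both with at most 2 macrophage-gate UMIs and no *Cd3e*. Neither of these gates had an upper limit on UMIs of the tumor gate. Named genes were the gate genes, the 12 highest and 12 lowest ratios per contrast (100 counts or more; genes of mitochondria and of ribosomal proteins left out), 2 to 4 per list, and *Lmo7*; the phase genes, *Xist*, *Csf2* and other identity genes were chosen after their values were seen. The members and lists were chosen with earlier results of these data known. Some genes of the lists are counted but not reported here by name. The steps were tested on simulated data. Tools were Python 3.11.15, NumPy 2.4.6, SciPy 1.17.1, pandas 2.3.3, scanpy 1.11.5 (Scrublet), matplotlib 3.10.9, and edgeR 4.0.16 in R 4.3.3, used for TMM factors alone. The alternatives were the filter on cells, the gates, doublets, depth, thinning, scaling, the minimum number of counts and per-cell means.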

Additional observations from a re-analysis of the deposited data

Results flagged for a closer look

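In 2 genes the ratio between the libraries had opposite directions in the cycling and the other *Tm4sf1*+ cells, beyond 2-fold in each, and the difference was not tested. *Rgs5*, a gene of pericytes, had a log2 ratio of −1.35 (126 and 40 counts) in the cycling cells and 1.64 (115 and 200 counts) in the other cells. The 5 cells with most *Rgs5* held 75.4% and 65.0% of its UMIs in the cycling cells and 67.8% and 81.0% in the other cells, so few cells set both values. *Cilp*, a matrix protein of cartilage, had a log2 ratio of 1.82 (22 and 63 counts) and −2.34 (136 and 15 counts), again with 68.2% to 86.7% of its UMIs in 5 cells of each class.

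Among droplets outside the cell filter, 39 in the *Lmo7*+/+ library and 48 in the library labelled *Lmo7*-/- passed every gate of the members. All but 1 of them exceeded 15% mitochondrial UMIs (38 of 39, and 48 of 48), with a median of 17.9% and 18.2% and a median depth of 5636 and 5294 UMIs.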

How the results depend on the processing

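The cycling share of *Tm4sf1*+ cells was 63.6% and 69.2% (*Lmo7*+/+ first) with at least 3 cycle UMIs, 49.5% and 58.0% with at least 6, 63.8% and 72.9% with at least 6 *Tm4sf1* UMIs, and 40.0% and 46.3% after thinning, so the level depends on the gates and on depth, while the difference was between 5.61 and 9.12 points under the filters on cells, the gates, the removal of doublets and thinning, and between 2.05 and 13.8 points within ranges of depth. The median S share of the *Lmo7*+/+ members was 34.3% with at least 6 cycle UMIs. The interferon median ranged from 0.81 to 0.98, and was 0.98 in members with no UMI of the macrophage gate, an alternative chosen after seeing the data.

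Counts of genes past 2-fold moved more. Genes lower in the members than in the other cells were 188 against cells with no cycle UMI, 70 with TMM scaling, 57 with at least 200 counts and 279 with at least 1 count in each class. Between the libraries, 45 genes were higher in cells of 5000 to 20000 UMIs, 167 with at least 20 counts, 34 with at least 200, and 479 with at least 1. The genes lower were 29 with median-of-ratios scaling, 140, 11 and 548 at those minimums, and 86 with means of per-cell CPM. A lower minimum tests more genes, and the cause of the other shifts was not tested. *Rgs5* turned to 0.47 in cells of 5000 to 20000 UMIs. Of 876 values of named genes under the alternatives, 875 kept their sign and 793 lay inside the counting interval. No paired analysis was possible because each genotype has 1 library. Differences between mice cannot be seen.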
